A study of Mus musculus with 6 samples.

Results

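Solute carriers are membrane proteins that move amino acids, sugars, metal ions, nucleotides and many other small solutes across the plasma membrane or across the membranes of mitochondria and vesicles. The genes described here were all those in the deposited expression table of single mouse haematopoietic stem and progenitor cells whose symbol starts with Slc followed by a digit. There were 240 of them among 13278 genes, and transcript counts could be worked back from the deposited scores for 239. The exception was Slc2a4, an insulin-responsive glucose carrier, which too few cells held. Of the 240, 4 carry a carrier's name without being carriers themselves, namely Slc4a1ap, Slc7a6os, Slc9a3r1 and Slc9a3r2.

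The cells came from C57BL/6 mice, were sorted singly and were read by a modified Smart-seq2 protocol, which copies the RNA of 1 cell, with enrichment of transcript 3′ ends. A total of 497 cells fell into 6 libraries, 1 per group, and each library mixed sorted populations that the deposited columns do not separate. The HPC1 library (82 cells) held CD201+CD48- and CD48+ HPC1, a haematopoietic progenitor gate, and the HSC1 library (84 cells) held the same CD201 and CD48 gates of HSC1, a stem cell gate. Both are labelled spleen, polyA RNA and 8 to 10 weeks of age. The MPP2-containing library (80 cells) held MPP2, a multipotent progenitor gate, beside CD48+ cells of the HSC1 and HPC1 gates and CD201-CD48- HPC1 (bone marrow, polyA RNA, 8 to 10 weeks). The HSC2/MPP4 library (89 cells) held CD48+ HSC2 and MPP4, and the CD48-negative HSC2 library (86 cells) held that gate's CD201+ and CD201- cells. Both of these are labelled bone marrow, total RNA and 8 weeks. The double-negative library (76 cells) held CD201-CD48- HSC1 and HPC1 (bone marrow, polyA RNA, 8 to 10 weeks). The series title speaks of bone marrow only, and the sources used here do not say how many mice gave the cells of a library.

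The MPP2-containing library was deepest, with 15019501 counts in all and a median of 145496 per cell, and CD48-negative HSC2 the shallowest, with 2778858 and 23540. Stem cell genes (16 of 16 measured) had their lowest sum in HSC2/MPP4, at 812 CPM, against 2737 CPM in CD48-negative HSC2, where 1 gene, Ltb, gave 487 CPM. Here CPM is counts per 1000000 of a library's pooled total. In CD48-negative HSC2 over double-negative, 4 of these genes were at least 2-fold higher and 4 lower, with a median log2 ratio of -0.45. Hoxb5 had 0 counts in HSC2/MPP4, and Slamf1 had 0 in CD48-negative HSC2. Megakaryocyte genes were highest in HPC1 (4415 CPM), haemoglobin genes in HPC1 (4460.0) and neutrophil genes in CD48-negative HSC2 (7015). Of 11 neutrophil genes, 8 were at least 2-fold higher in HPC1 over HSC1 (median log2 ratio 3.61), 10 in MPP2-containing over double-negative (1.72) and 8 in CD48-negative HSC2 over double-negative (2.65), and 5 were lower in HSC2/MPP4 over CD48-negative HSC2 (-0.42). No difference between libraries has a replicate check, so none was tested. Intervals on levels are exact 95% Poisson intervals of the pooled counts, which cover counting error only, and amplified reads need not be independent molecules.

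As background, solute carriers are grouped in families by sequence, and members of a family often, but not always, carry related solutes. Blood-forming stem and progenitor cells are known to differ in how much they use glycolysis and mitochondrial respiration, and dividing progenitors need more amino acids, nucleosides, folate and iron than resting cells. Carriers of the Slc25 family sit in the inner mitochondrial membrane, where they exchange ADP, ATP, phosphate and metabolites with the cytosol. Glucose enters through Slc2 carriers, lactate and related acids cross through Slc16 carriers, and iron moves through Slc11a2 and Slc40a1.

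Promoter sequences are given for 4 members whose levels differed between libraries, chosen after their values were seen: the vesicular monoamine carrier Slc18a2, the lactate carrier Slc16a1, the glucose carrier Slc2a1 and Slc16a11, a monocarboxylate-family carrier. Each is the 250 bases before the RefSeq start on GRCm38.p6, all on the plus strand, at chr19:59260628-59260877, chr3:104638414-104638663, chr4:119108495-119108744 and chr11:70213660-70213909. The Slc16a11 window lies wholly inside the gene as GENCODE M21 places it (chr11:70212752-70216417), after the start given there. Bases before that start were not searched for this gene. The end of the Slc2a1 window also lies inside its gene in GENCODE M21, which starts at chr4:119108711. Capitals mark matches on either strand to GATAA (the core of sites of GATA factors), CACGTG (an E-box, bound by MYC and other factors) and TGATGNAAT (a core of amino acid response elements, bound by ATF4).
Slc18a2: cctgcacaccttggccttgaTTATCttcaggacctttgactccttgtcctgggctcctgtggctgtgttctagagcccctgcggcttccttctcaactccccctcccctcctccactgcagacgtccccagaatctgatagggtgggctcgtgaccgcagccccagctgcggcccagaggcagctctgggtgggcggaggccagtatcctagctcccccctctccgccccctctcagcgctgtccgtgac
Slc16a1: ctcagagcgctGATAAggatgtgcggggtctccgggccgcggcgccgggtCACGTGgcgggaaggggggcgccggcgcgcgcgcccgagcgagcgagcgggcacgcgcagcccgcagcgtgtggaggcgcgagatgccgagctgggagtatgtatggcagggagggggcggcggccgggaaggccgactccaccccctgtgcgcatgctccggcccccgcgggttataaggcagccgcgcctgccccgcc
Slc2a1: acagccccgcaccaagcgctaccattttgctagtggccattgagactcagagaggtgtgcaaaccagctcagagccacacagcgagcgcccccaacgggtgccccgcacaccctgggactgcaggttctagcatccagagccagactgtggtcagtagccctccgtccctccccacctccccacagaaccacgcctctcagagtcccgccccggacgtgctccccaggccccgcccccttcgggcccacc
Slc16a11: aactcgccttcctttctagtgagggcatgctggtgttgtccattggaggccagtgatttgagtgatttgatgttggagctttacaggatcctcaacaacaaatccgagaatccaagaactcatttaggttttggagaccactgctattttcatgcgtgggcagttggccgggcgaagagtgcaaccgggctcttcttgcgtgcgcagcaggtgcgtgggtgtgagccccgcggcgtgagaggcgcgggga
The Slc18a2 window holds 1 GATAA match, read on the opposite strand, and the Slc16a1 window holds 1 GATAA match and 1 CACGTG match. These letters are not in the windows of Slc2a1 and Slc16a11. Over the same window, GATAA is in 17.1% of the 240 member promoters, all of which matched by symbol, and in 22.6% of all 32851. CACGTG is in 11.7% of member promoters against 6.02% of all, and TGATGNAAT in 0 of 240 against 0.816% of all. None of the matches overlap each other in the windows shown, and a match is not a measured site.

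Most carriers were rare transcripts. Of the 239, 223 reached 1 CPM in at least 1 library, 155 reached 10 CPM, 43 reached 50 CPM and 17 reached 100 CPM. Only 8 were counted in 400 or more of the 497 cells, and 60 were counted in 3 to 24 cells. Summed over all members, carriers reached 7461 CPM in HPC1 and 6993 in HSC1, 7047 in MPP2-containing and 7219 in HSC2/MPP4 cells, and 6883 in CD48-negative HSC2 and 7223 in double-negative cells. After each cell was thinned to 10000 counts, which removes differences in depth, the median cell held 28 members in HPC1 and 28 in HSC1, 29 in MPP2-containing and 30 in HSC2/MPP4 cells, and 26.5 in CD48-negative HSC2 and 27 in double-negative cells. The same cells held a median of 2585 genes in HPC1 and 2484 in HSC1, 2800.0 in MPP2-containing and 2729 in HSC2/MPP4 cells, and 2412 in CD48-negative HSC2 and 2502 in double-negative cells. Before thinning, the median numbers of members ran from 33 in CD48-negative HSC2, the shallowest library, to 80 in the MPP2-containing library, the deepest.

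Mitochondrial carriers held the largest part of the carrier transcripts, with 42 members and 3525 CPM in HPC1 and 2995 in HSC1, 3346 in MPP2-containing and 3319.8 in HSC2/MPP4 cells, and 2766 in CD48-negative HSC2 and 3219.8 in double-negative cells. Slc25a5, the adenine nucleotide translocase 2 that exchanges ADP for ATP, had the highest level of any member. It stood at 1484 CPM in HPC1 and 1023 in HSC1, 1467 in MPP2-containing and 1409 in HSC2/MPP4 cells, and 806 in CD48-negative HSC2 and 1068 in double-negative cells. The log2 ratio was 0.53 in HPC1 over HSC1, 0.45 in MPP2-containing over double-negative, 0.80 in HSC2/MPP4 over CD48-negative HSC2 and -0.40 in CD48-negative HSC2 over double-negative, all below 2-fold. Here and later, 10 CPM was added to both pooled levels before a ratio was taken, so differences of rare genes are understated. Its relative Slc25a4, adenine nucleotide translocase 1, stood at 273 CPM in HPC1 and 298 in HSC1, 304 in MPP2-containing and 283 in HSC2/MPP4 cells, and 303 in CD48-negative HSC2 and 355 in double-negative cells. Slc25a4 therefore made up a varying share of the counts of the pair: 15.5% in HPC1 and 22.6% in HSC1, 17.2% in MPP2-containing and 16.7% in HSC2/MPP4 cells, and 27.4% in CD48-negative HSC2 and 24.97% in double-negative cells. The 3 lowest shares were in HPC1, HSC2/MPP4 and the MPP2-containing library, and the highest in CD48-negative HSC2 (exact 95% interval 25.8 to 29.0%), followed by the double-negative library (24.3 to 25.7%). The coding sequences of the pair are alike and both have many pseudogene copies, so how reads were split between them is uncertain. S phase genes, a list of DNA replication genes, summed to 2261 CPM in HPC1 and 1420.0 in HSC1, 2689 in MPP2-containing and 2947 in HSC2/MPP4 cells, and 1453 in CD48-negative HSC2 and 1578 in double-negative cells, so HPC1, MPP2-containing and HSC2/MPP4 also had the 3 highest sums of that list. Its part in the Slc25a5 levels was not tested.

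Other abundant mitochondrial carriers were less than 2-fold apart in all 4 comparisons. Slc25a3, which imports phosphate, stood at 707 CPM in HPC1 and 666 in HSC1, 626 in MPP2-containing and 706 in HSC2/MPP4 cells, and 634 in CD48-negative HSC2 and 751 in double-negative cells, and all 4 of its log2 ratios lay between -0.26 and 0.15. Slc25a11, the oxoglutarate-malate carrier, was at 209 CPM in HPC1 and 198 in HSC1, 171 in MPP2-containing and 119.5 in HSC2/MPP4 cells, and 164 in CD48-negative HSC2 and 234 in double-negative cells. It was thus lowest in HSC2/MPP4 and highest in the double-negative library, and less than 2-fold apart in each comparison. Slc25a39, which is needed for glutathione import, was at 119.6 CPM in HPC1 and 82.1 in HSC1, 102 in MPP2-containing and 62.4 in HSC2/MPP4 cells, and 52.2 in CD48-negative HSC2 and 54.3 in double-negative cells. Its 2 highest levels were in HPC1 and the MPP2-containing library, with log2 ratios of 0.49 in HPC1 over HSC1 and 0.80 in MPP2-containing over double-negative. Slc25a10, the dicarboxylate carrier, singled out after its values were seen, had 50.5 CPM in HPC1 and 22.03 in HSC1, 31.8 in MPP2-containing and 37.97 in HSC2/MPP4 cells, and 19.1 in CD48-negative HSC2 and 14.7 in double-negative cells. Its ratios over the same comparisons were 0.92 and 0.76, below 2-fold. Within libraries, cells with more S phase transcripts tended to hold more Slc25a10, with a Spearman rho from 0.09 (double-negative, 76 cells) to 0.44 (HPC1, 82 cells), and from 0.14 to 0.33 after thinning. Cells of a library share their library and differ in depth, so this is a description only.

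2 mitochondrial carriers were at least 2-fold apart among those counted in 25% or more of the cells of a library. Slc25a20, the carnitine-acylcarnitine carrier that brings fatty acids into mitochondria, was at 35.6 CPM in HPC1 and 10.6 in HSC1, 14.4 in MPP2-containing and 24.5 in HSC2/MPP4 cells, and 43.2 in CD48-negative HSC2 and 19.6 in double-negative cells. The HSC1 level was lowest, though not separated from the MPP2-containing one beyond counting error, and the HPC1 level was not separated from that of CD48-negative HSC2. HPC1 over HSC1 gave a log2 ratio of 1.15 (0.85 to 1.43 at the Poisson bounds of both sides). It was counted in 25.9% of thinned HPC1 cells and 7.5% of HSC1 cells. As a mean of per-cell CPM in place of pooled counts, the ratio was 0.82, and after thinning 0.79, both below 2-fold. Slc25a44, which carries branched-chain amino acids into mitochondria, was at 14.9 CPM in HPC1 and 24.3 in HSC1, 14.98 in MPP2-containing and 26.5 in HSC2/MPP4 cells, and 6.48 in CD48-negative HSC2 and 11.03 in double-negative cells. It was higher in HSC2/MPP4 than in CD48-negative HSC2 by a log2 ratio of 1.15 (0.65 to 1.61), which rests on 104 and 18 counts, and was 0.86 after thinning.

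**Figure D1:**
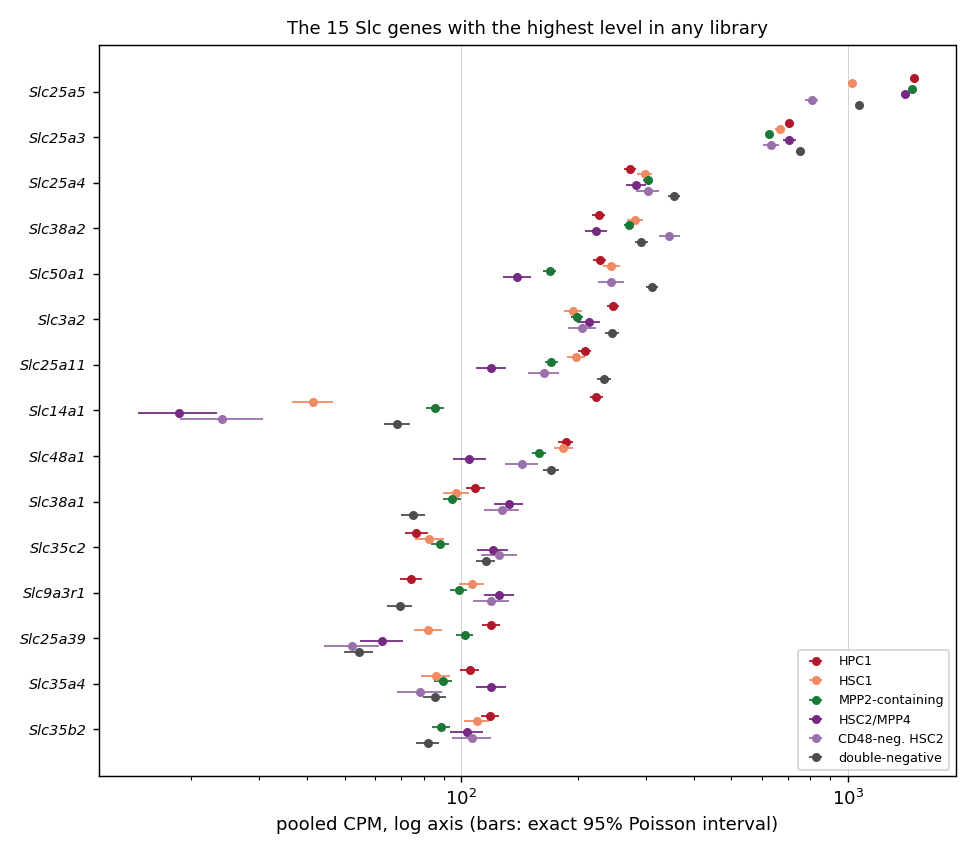
Pooled CPM on a log axis for the 15 members with the highest level in any library, with exact 95% Poisson intervals, 1 colour per library. Slc25a5 leads in every library, and Slc14a1 has the widest spread of these genes, between 18.6 CPM in HSC2/MPP4 and 223 CPM in HPC1.

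Amino acid carriers were close to level as a class. Their 24 members summed to 987 CPM in HPC1 and 1004 in HSC1, 974 in MPP2-containing and 1005 in HSC2/MPP4 cells, and 1088 in CD48-negative HSC2 and 996 in double-negative cells, and the highest sum was 1.12 times the lowest. Slc38a2, a sodium-coupled carrier of neutral amino acids, was at 227 CPM in HPC1 and 282 in HSC1, 271 in MPP2-containing and 223 in HSC2/MPP4 cells, and 345 in CD48-negative HSC2 and 292 in double-negative cells. Slc3a2, the shared heavy chain of several amino acid exchangers, was at 247 CPM in HPC1 and 195 in HSC1, 198.8 in MPP2-containing and 214 in HSC2/MPP4 cells, and 205 in CD48-negative HSC2 and 245 in double-negative cells. Neither was 2-fold apart in any of the 4 comparisons. Slc1a5, a glutamine carrier named here after its values were seen, kept within 75.5 CPM (double-negative) and 94.5 CPM (HSC2/MPP4). Slc7a5, the light chain that pairs with Slc3a2 to import leucine, was rare at 14.3 CPM in HPC1 and 12.2 in HSC1, 20.8 in MPP2-containing and 15.04 in HSC2/MPP4 cells, and 11.9 in CD48-negative HSC2 and 15.3 in double-negative cells, the highest level being in the MPP2-containing library. Its ratio over the double-negative library was 0.28, where 1 cell held 54.97% of the double-negative counts, and 0.76 without the highest cell of each library.

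Slc38a1, a relative of Slc38a2, and Slc43a2, a facilitative carrier of large neutral amino acids, were highest in both libraries labelled total RNA. Slc38a1 stood at 109 CPM in HPC1 and 96.9 in HSC1, 94.6 in MPP2-containing and 133 in HSC2/MPP4 cells, and 127 in CD48-negative HSC2 and 75.1 in double-negative cells. Slc43a2 stood at 6.88 CPM in HPC1 and 7.24 in HSC1, 5.86 in MPP2-containing and 34.1 in HSC2/MPP4 cells, and 38.5 in CD48-negative HSC2 and 8.60 in double-negative cells. The HSC2/MPP4 and CD48-negative HSC2 levels of Slc43a2 were both above those of the other 4 libraries, and the log2 ratio of CD48-negative HSC2 over double-negative was 1.38 (1.01 to 1.74). Slc6a15, which carries neutral amino acids although its family is named for amines, was lowest in those libraries, with 6.45 CPM in HPC1 and 15.3 in HSC1, 4.99 in MPP2-containing and 0 in HSC2/MPP4 cells, and 1.08 in CD48-negative HSC2 and 17.5 in double-negative cells. It had 3 counts in CD48-negative HSC2 and 173 in the double-negative library, a log2 ratio of -1.31 (-1.57 to -0.93). In HSC2/MPP4 its 0 counts allow up to 0.765 CPM. Of 17 genes of the amino acid response, which cells switch on when amino acids run short, 4 were at least 2-fold higher and 2 lower in CD48-negative HSC2 over double-negative. Atf4, its main transcription factor, was higher by 1.04, and Asns, asparagine synthetase, lower, at -1.87 on the log2 scale. In HPC1 over HSC1 and in HSC2/MPP4 over CD48-negative HSC2 none of the 17 were 2-fold apart, and in MPP2-containing over double-negative 1 was lower.

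Sugar carriers had their lowest sums in the libraries that contain MPP2 or MPP4. The 11 members with counts summed to 365 CPM in HPC1 and 383 in HSC1, 279 in MPP2-containing and 266 in HSC2/MPP4 cells, and 427 in CD48-negative HSC2 and 458 in double-negative cells. Slc50a1, a sugar carrier of the Golgi and plasma membrane and the most abundant of the class, was at 228 CPM in HPC1 and 244 in HSC1, 169.6 in MPP2-containing and 139.7 in HSC2/MPP4 cells, and 244 in CD48-negative HSC2 and 312 in double-negative cells. Its log2 ratios were -0.84 in MPP2-containing over double-negative and -0.76 in HSC2/MPP4 over CD48-negative HSC2, both below 2-fold. Slc2a1, the widely used glucose carrier GLUT1, was at 23.6 CPM in HPC1 and 39.9 in HSC1, 14.4 in MPP2-containing and 25.7 in HSC2/MPP4 cells, and 38.5 in CD48-negative HSC2 and 43.2 in double-negative cells. MPP2-containing cells had the lowest level and the double-negative library the highest, a log2 ratio of -1.12 (-1.35 to -0.89), which was -0.99 without the highest cell of each library and -0.92 after thinning. It was counted in 13.8% of thinned MPP2-containing cells and 25.3% of double-negative cells. Slc2a3, the glucose carrier GLUT3, was at 48.8 CPM in HPC1 and 27.7 in HSC1, 31.2 in MPP2-containing and 38.99 in HSC2/MPP4 cells, and 88.9 in CD48-negative HSC2 and 46.6 in double-negative cells. HSC2/MPP4 had less than CD48-negative HSC2 by a log2 ratio of -1.01 (-1.36 to -0.66), which was -0.22 as a mean of per-cell CPM. Of the counts of Slc2a1 and Slc2a3 together, Slc2a1 made up 32.6% in HPC1 and 59.00% in HSC1, 31.6% in MPP2-containing and 39.8% in HSC2/MPP4 cells, and 30.2% in CD48-negative HSC2 and 48.1% in double-negative cells. HSC1 alone had more Slc2a1 than Slc2a3 (exact 95% interval 54.2 to 63.6%). The double-negative share was not separated from equal counts of both beyond counting error (44.8 to 51.4%).

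Of 17 glycolysis genes measured, 0 were at least 2-fold apart in 3 of the comparisons, and only Hk3, a hexokinase, was higher in CD48-negative HSC2 over double-negative. Their sums were 5109 CPM in HPC1 and 4778 in HSC1, 5172 in MPP2-containing and 6213 in HSC2/MPP4 cells, and 5344 in CD48-negative HSC2 and 5239 in double-negative cells. Immediate early genes (9 of 10 measured), which are quickly induced by stimulation or by handling of cells, summed to 939 CPM in HPC1 and 1267 in HSC1, 1676 in MPP2-containing and 2548 in HSC2/MPP4 cells, and 4225 in CD48-negative HSC2 and 1376 in double-negative cells. They were highest in CD48-negative HSC2, where Slc2a3 was also highest. In HSC2/MPP4 over CD48-negative HSC2, 1 of the 9 was at least 2-fold lower, with a median of -0.81. The part of cell handling in the Slc2a3 level was not tested, and within that library the rho of Slc2a3 with the immediate early sum was 0.01 over 86 cells and 0.28 over the 66 cells left after thinning.

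The 12 members of the Slc13 and Slc16 families, which carry lactate and other monocarboxylates, citrate, creatine and further solutes, did not share an order of levels. They summed to 101 CPM in HPC1 and 86.8 in HSC1, 137 in MPP2-containing and 192 in HSC2/MPP4 cells, and 123 in CD48-negative HSC2 and 84.4 in double-negative cells. In HSC2/MPP4, 64.7 CPM of that sum came from Slc16a11. Slc16a1, which carries lactate and pyruvate with a proton, was at 35.7 CPM in HPC1 and 14.5 in HSC1, 46.5 in MPP2-containing and 38.2 in HSC2/MPP4 cells, and 15.1 in CD48-negative HSC2 and 13.4 in double-negative cells. Its 3 highest levels were in the MPP2-containing, HSC2/MPP4 and HPC1 libraries and its other 3 levels lay between 13.4 and 15.1 CPM. The log2 ratio was 1.28 (1.04 to 1.51) in MPP2-containing over double-negative, 0.94 (0.48 to 1.39) in HSC2/MPP4 over CD48-negative HSC2 and 0.90 (0.61 to 1.19) in HPC1 over HSC1. Only the first was 2-fold, and it stayed so under all 6 alternative settings (1.27 to 1.73). Of these settings, adding 1 CPM and the filter at 10 CPM cannot undo a 2-fold ratio, here or for other members. After thinning, the other comparisons gave 0.20 and 0.32. Thinned cells with a count made up 31.2% of MPP2-containing cells and 10.7% of double-negative cells. The libraries with the 3 highest Slc16a1 levels also had the 3 highest S phase sums given above. The rho of Slc16a1 with the S phase sum over the cells of a library ran from 0.22 (MPP2-containing) to 0.42 (CD48-negative HSC2), and from 0.14 to 0.39 after thinning. With the sum of 16 G2/M phase genes the rho was -0.04 in the MPP2-containing library, where Slc16a1 was highest, and 0.11 to 0.35 in the other 5. After thinning it was -0.11 there and 0.21 to 0.31 in the others. The part of the cell cycle in these levels was not tested.

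Slc16a11, a monocarboxylate-family carrier, was at 1.48 CPM in HPC1 and 6.63 in HSC1, 10.9 in MPP2-containing and 64.7 in HSC2/MPP4 cells, and 18.7 in CD48-negative HSC2 and 6.07 in double-negative cells. HSC2/MPP4 stood apart from the other 5 libraries, and its log2 ratio over CD48-negative HSC2 was 1.38 (0.96 to 1.79), or 0.88 after thinning. Counts were found in 29.6% of thinned HSC2/MPP4 cells, 10.6% of CD48-negative HSC2 cells and at most 6.25% of cells in the other 4 libraries. In the double-negative library 1 cell held 90% of its counts. Lymphoid progenitor genes (8 of 9 measured), among them genes of the recombination machinery, were also highest in HSC2/MPP4, with 206 CPM in HPC1 and 458 in HSC1, 377 in MPP2-containing and 1415 in HSC2/MPP4 cells, and 748 in CD48-negative HSC2 and 371 in double-negative cells. Cd27 made up most of this sum in every library but HSC2/MPP4. It was at 410 CPM in CD48-negative HSC2, 342 in HSC2/MPP4 and 296 in double-negative cells. Il7r and Rag2 were at 0 in HPC1, HSC1 and the double-negative library, and Rag2 also in CD48-negative HSC2. Over the 89 HSC2/MPP4 cells the rho of Slc16a11 with the lymphoid progenitor sum was 0.12, or 0.13 after thinning. In HSC2/MPP4 over CD48-negative HSC2, 2 of the 8 genes were at least 2-fold higher. The part of lymphoid progenitor cells in the Slc16a11 level was not tested. Slc16a12, which carries creatine, was at 4.36 CPM in HPC1 and 22.96 in HSC1, 5.19 in MPP2-containing and 8.66 in HSC2/MPP4 cells, and 25.2 in CD48-negative HSC2 and 3.03 in double-negative cells. It was lower in HPC1 than in HSC1 (-1.20, -1.48 to -0.90) and higher in CD48-negative HSC2 than in the double-negative library (1.43, 1.05 to 1.80). The first was below 2-fold after thinning (-0.88) and the other stayed past 2-fold under all 6 alternatives (1.23 to 2.70).

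The shares of carriers that differed were set beside those of all genes. A gene was called when its ratio was at least 2-fold. In HPC1 over HSC1, 6 of 239 members (2.51%) were higher and 3 (1.26%) lower, against 1.81% and 1.97% of all 13168 genes. None of the 3 lower ones stayed 2-fold lower after thinning, when 5 other members did, and 1 of the 3 did without each gene's highest cell. In MPP2-containing over double-negative, 3 (1.26%) were higher and 4 (1.67%) lower, against 1.91% and 1.9% of all genes. Without each gene's highest cell 0 of the 4 were 2-fold lower. In HSC2/MPP4 over CD48-negative HSC2, 4 (1.67%) were higher and 3 (1.26%) lower, against 1.78% and 3.08%. Of those 3, 1 was among the 6 lower ones as a mean of per-cell CPM and 1 among the 5 after thinning. In CD48-negative HSC2 over double-negative, 9 (3.77%) were higher and 9 (3.77%) lower, against 4.01% and 2.54%. That comparison sets a library labelled total RNA against 1 labelled polyA RNA, and it shares a library with each of the 2 comparisons given before it. Of its 9 lower members, 4 were lower as a mean of per-cell CPM. Without cells rich in haemoglobin or neutrophil genes, the members higher and lower were 4 and 3, 3 and 3, 4 and 2, and 10 and 9 in the same order of comparisons, and the part of such cells in the differences was otherwise not tested. Shares of all genes without those cells are not given. The median log2 ratio of the members lay between -0.02 and 0.00 in all 4, and that of all genes also between -0.02 and 0.00. Among members reaching 10 CPM in a library, of which there were 155, the shares called were 3.87% and 1.94%, 1.94% and 2.58%, 2.58% and 1.94%, and 5.81% and 5.81%, higher and lower in the same order of comparisons. The medians of these 155 were -0.11, -0.03, -0.06 and 0.02, against -0.01, -0.02, -0.06 and 0.00 over all genes at that level, and in HPC1 over HSC1 65 of the 155 were above 0 and 90 below. The shares of all 9757 genes reaching that level were 2.44% and 2.66%, 2.57% and 2.56%, 2.41% and 4.16%, and 5.41% and 3.42%.

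Of the members called, 9 were counted in under 25% of the cells of every library, Slc16a12 described above among them, and their counts are small. Slc31a2, of the copper carrier family, was lower in HPC1 over HSC1, at -1.10. Slc13a2, a citrate and dicarboxylate carrier, was lower in MPP2-containing over double-negative, at -1.08. Slc4a8, a bicarbonate carrier, was higher in HSC2/MPP4 over CD48-negative HSC2 by 1.23. Slc12a9, of the chloride cotransporter family, was lower in that comparison, at -1.10 and higher in CD48-negative HSC2 over double-negative by 1.16. Its counts were 26 in HSC2/MPP4, 71 for CD48-negative HSC2 and 58 in the double-negative library. In CD48-negative HSC2 over double-negative, Slc30a4, a zinc exporter, was higher by 1.11 and Slc25a26, which carries S-adenosylmethionine into mitochondria, lower, at -1.10. Apart from Slc16a12 these were named after their values were seen. Slc4a1, also among the 9, is described with the iron carriers.

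Adding 1 CPM and the filter at 10 CPM cannot undo a 2-fold ratio, so both count as kept in every tally below. A tally of 2 of 6 thus means that no other setting kept the difference. Several members that were at least 2-fold apart did not stay so under all 6 alternative settings. In HPC1 over HSC1 these included Slc16a12 under 5 of 6 (-2.16 to -0.88), Slc25a20 under 4 of 6 (0.79 to 1.66), Slc52a2 under 4 of 6 (0.52 to 1.99), Slc22a15 under 3 of 6 (0.24 to 1.96) and Slc41a3 under 3 of 6 (-2.07 to -0.45), the range of log2 ratios being given in brackets. In MPP2-containing over double-negative they included Slc2a1 under 4 of 6 (-1.52 to -0.92), Slc35f2 under 3 of 6 (-1.83 to -0.58) and Slc35b3 under 2 of 6 (-1.29 to -0.53). In HSC2/MPP4 over CD48-negative HSC2 they included Slc16a11 under 5 of 6 (0.88 to 1.74), Slc25a44 under 5 of 6 (0.86 to 1.88), Slc19a1 under 4 of 6 (0.89 to 1.51) and Slc2a3 under 3 of 6 (-1.17 to -0.22). In CD48-negative HSC2 over double-negative they included Slc43a2 under 5 of 6 (0.99 to 2.04), Slc26a2 under 5 of 6 (-2.01 to -0.92), Slc39a9 under 5 of 6 (-1.67 to -0.74), Slc19a1 under 4 of 6 (-1.79 to -0.65), Slc14a1 under 3 of 6 (-1.46 to -0.44) and Slc35f2 under 3 of 6 (-1.68 to -0.65).

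**Figure D2:**
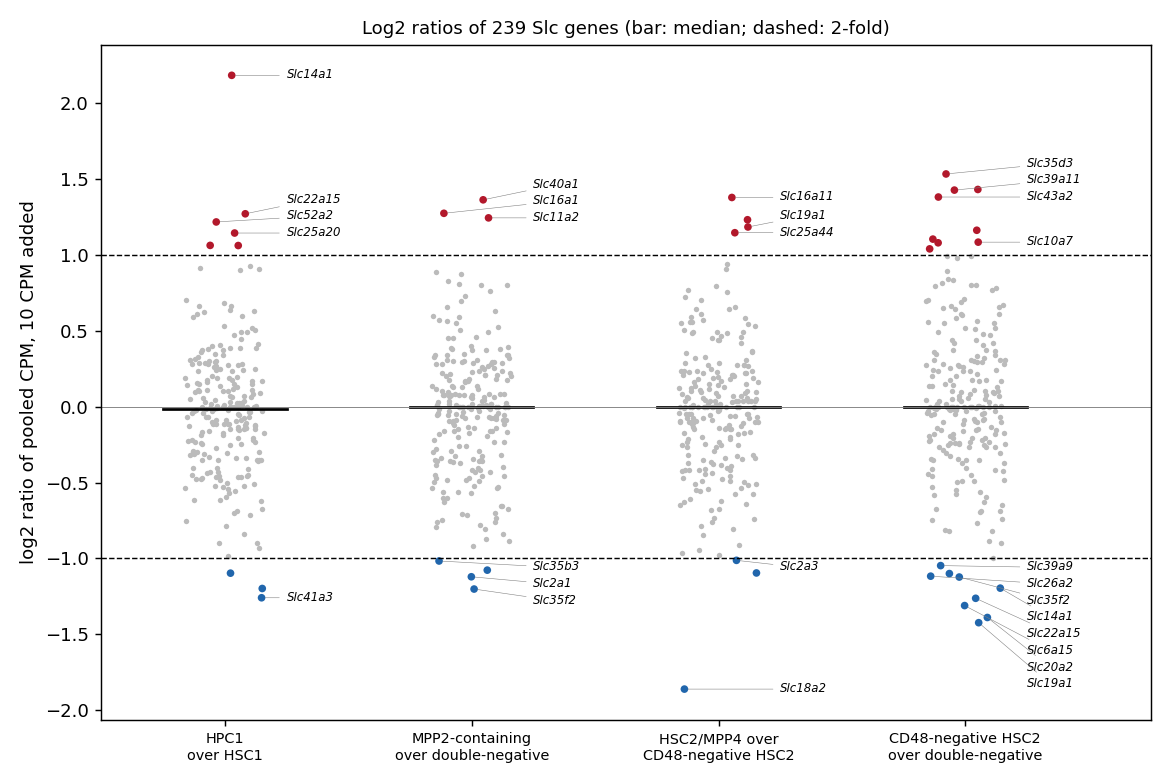
Log2 ratios of pooled CPM, with 10 CPM added, for 239 members in the 4 comparisons, 1 point per gene. Red and blue points are at least 2-fold higher or lower, the bar is the median, and names are given for called members described in the text that were counted in at least 25% of the cells of a library. The medians lie at -0.02 or 0.00, and Slc14a1 at 2.19 and Slc18a2 at -1.86 are the farthest points.

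The largest difference among the members was in Slc14a1, the urea transporter UT-B, known from red cells. It stood at 223 CPM in HPC1 and 41.3 in HSC1, 85.5 in MPP2-containing and 18.6 in HSC2/MPP4 cells, and 24.1 in CD48-negative HSC2 and 68.2 in double-negative cells. HPC1 was highest, followed by the MPP2-containing and double-negative libraries, and HSC2/MPP4 and CD48-negative HSC2 were lowest, where their intervals overlapped (14.6 to 23.4 and 18.7 to 30.6 CPM). The log2 ratio of HPC1 over HSC1 was 2.19 (1.99 to 2.38), 4.55-fold with the 10 CPM added, and 1.79 to 2.41 under the 6 alternatives. Counts were found in 58.02% of thinned HPC1 cells and 18.8% of thinned HSC1 cells. Before thinning, 72 of 82 HPC1 cells held a count, with a median of 94.3 and a maximum of 1128 CPM, and 32 of 84 HSC1 cells, with a median of 0 and a maximum of 889 CPM. In MPP2-containing over double-negative the ratio was 0.29. In CD48-negative HSC2 over double-negative it was -1.20 (-1.54 to -0.85), but -0.44 as a mean of per-cell CPM, and 1 double-negative cell held 26.3% of that library's counts.

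Sums of megakaryocyte genes, which encode platelet granule and adhesion proteins, had the same order over the libraries as the Slc14a1 levels. All 13 were measured and summed to 4415 CPM in HPC1 and 702 in HSC1, 1802 in MPP2-containing and 159 in HSC2/MPP4 cells, and 437 in CD48-negative HSC2 and 1281 in double-negative cells. In HPC1 over HSC1, 11 of 13 were at least 2-fold higher and 0 lower, with a median log2 ratio of 1.40. In MPP2-containing over double-negative, 2 were higher and 1 lower, with a median of -0.08 and 6 of 13 above 0. In CD48-negative HSC2 over double-negative, 8 were lower and 0 higher, with a median of -1.59. Of the 13, 3 were at 0 in HSC2/MPP4, namely Gp1bb, Ppbp and Cavin2. Within libraries, the rho of Slc14a1 with the megakaryocyte sum was 0.61 over 82 HPC1 cells, 0.41 over 80 MPP2-containing cells and 0.24 over 76 double-negative cells. It was between 0.05 and 0.10 in the other 3. Thinning gave 0.53, 0.49 and 0.32 in the first 3. Cells of a library differ in depth and share their library, so these are descriptions, and the part of megakaryocyte genes' cells in the Slc14a1 difference was not tested. Of 14 erythroid genes, all measured, 6 were at least 2-fold higher and 1 lower in HPC1 over HSC1. They summed to 6063 CPM in HPC1 and 2561 in HSC1, of which the 4 haemoglobin genes made up 4460.0 and 678 CPM, and the lower gene was Car1, at a log2 ratio of -2.73. Without the cells rich in haemoglobin or neutrophil genes the Slc14a1 ratio was 2.25.

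**Figure D3:**
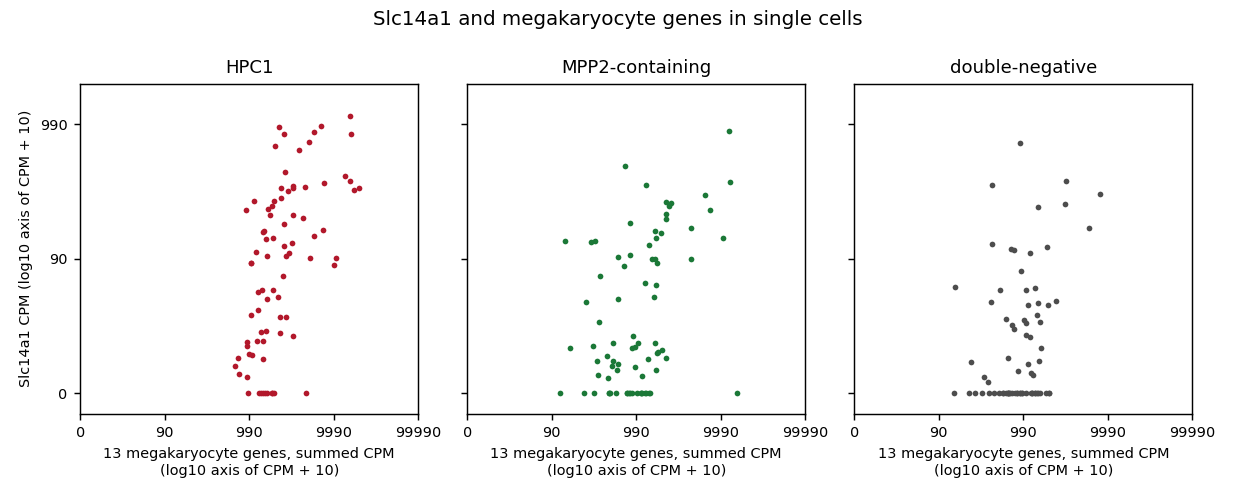
Slc14a1 against the sum of 13 megakaryocyte genes in single cells of 3 libraries, both in CPM on log10 axes after adding 10 CPM. HPC1 cells with high megakaryocyte sums lie high for Slc14a1 (rho 0.61), with less of a trend in the double-negative library (rho 0.24).

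Slc18a2, the vesicular monoamine transporter 2 that loads serotonin, histamine and other amines into granules, was common in 5 libraries and rare in HSC2/MPP4. Its levels were 75.1 CPM in HPC1 and 115 in HSC1, 83.8 in MPP2-containing and 12.7 in HSC2/MPP4 cells, and 72.7 in CD48-negative HSC2 and 115 in double-negative cells. The HSC2/MPP4 interval (9.46 to 16.8 CPM) lay below those of all other libraries, the nearest being CD48-negative HSC2 (63.01 to 83.4). The log2 ratio of HSC2/MPP4 over CD48-negative HSC2 was -1.86 (-2.26 to -1.45), and -2.42 to -1.45 under the 6 alternatives. Thinned cells with a count were 43.2% in HPC1 and 50% in HSC1, 43.8% in MPP2-containing and 9.88% in HSC2/MPP4 cells, and 30.3% in CD48-negative HSC2 and 53.3% in double-negative cells. Stem cell genes had the same direction in this comparison, 12 of 16 being at least 2-fold lower and 0 higher, with a median log2 ratio of -1.47. Over the other libraries their sum did not follow Slc18a2. It was 973 CPM in the MPP2-containing library, near the 812 CPM in HSC2/MPP4, and highest in CD48-negative HSC2, at 2737 CPM. Mast cell and basophil genes (5 of 8 measured), whose cells are known for Slc18a2, summed to 200.1 CPM in HPC1 and 273 in HSC1, 231 in MPP2-containing and 43.6 in HSC2/MPP4 cells, and 137 in CD48-negative HSC2 and 238 in double-negative cells. Ms4a2 and Fcer1a were at 0 in both HSC2/MPP4 and CD48-negative HSC2, Ms4a2 also in HPC1, and Mcpt8 in CD48-negative HSC2. Cpa3 lay between 1.08 CPM in CD48-negative HSC2 and 27.0 CPM in HSC1. In CD48-negative HSC2 the remaining gene therefore gave nearly all of the 137 CPM. In HSC2/MPP4 over CD48-negative HSC2, 1 of the 5 was at least 2-fold lower and 0 higher, with a median log2 ratio of 0. Above 0 were 2 of the 5, Cpa3 among them at 0.56. Over the cells of a library the rho of Slc18a2 with the stem cell sum ran from -0.05 to 0.26 and with the mast cell and basophil sum from -0.06 to 0.23. After thinning these were -0.12 to 0.28 and -0.13 to 0.18, and their part in the Slc18a2 difference was not tested. Other abundant members of the amine group varied less: Slc6a6, the taurine carrier, lay between 50.02 CPM in CD48-negative HSC2 and 70.4 CPM in the double-negative library, and Slc6a13, a GABA carrier, between 21.2 in HSC2/MPP4 and 40.8 in HSC1.

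**Figure D4:**
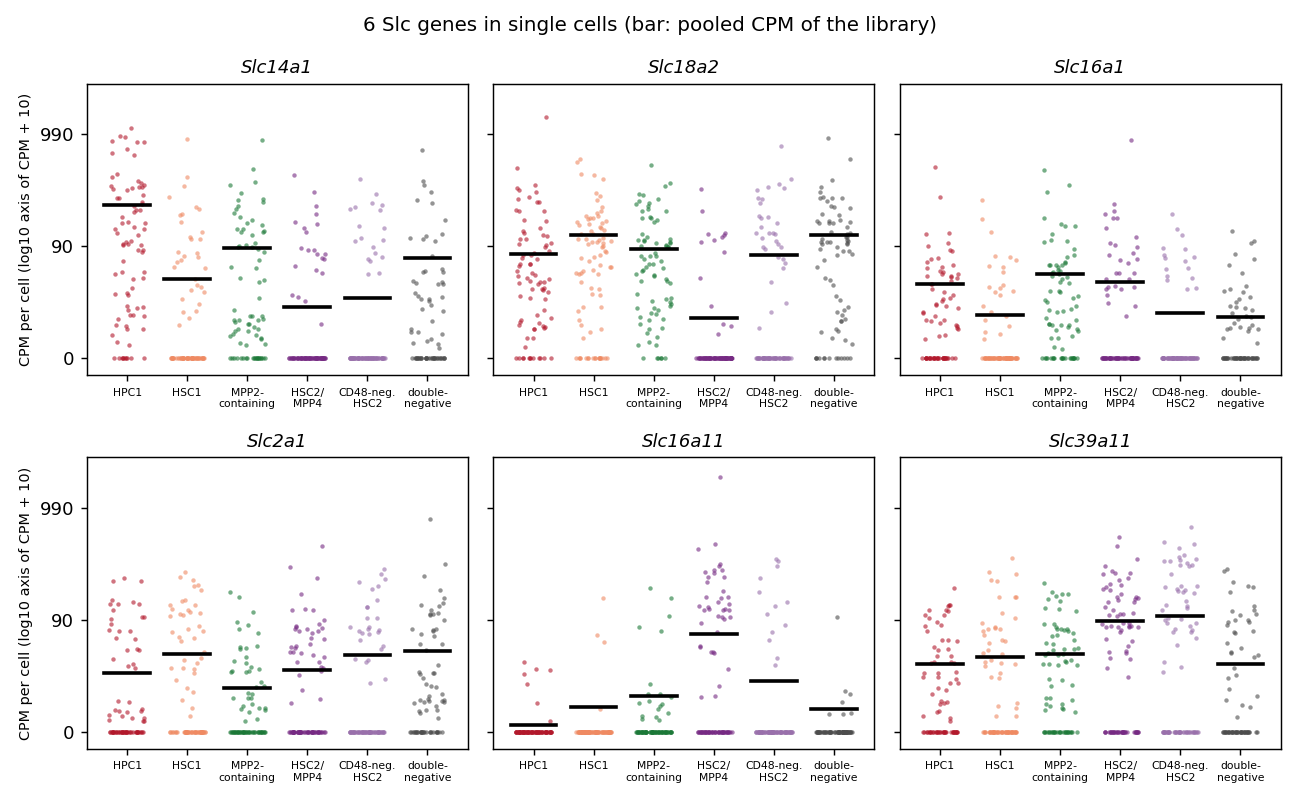
Single-cell CPM of 6 members by library, 1 point per cell, on a log10 axis after adding 10 CPM, with a bar at the pooled CPM. Slc14a1 is highest in HPC1 (223 CPM), Slc18a2 lowest in HSC2/MPP4 (12.7 CPM), Slc16a11 highest in HSC2/MPP4 (64.7 CPM) and Slc39a11 highest in HSC2/MPP4 and CD48-negative HSC2 (87.7 and 97.5 CPM).

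Both cellular iron carriers were higher in MPP2-containing over double-negative. Slc40a1, ferroportin, the cell's iron exporter, was at 8.98 CPM in HPC1 and 4.31 in HSC1, 23.3 in MPP2-containing and 11.5 in HSC2/MPP4 cells, and 15.5 in CD48-negative HSC2 and 2.93 in double-negative cells. Its log2 ratio of MPP2-containing over double-negative was 1.36 (1.12 to 1.58), and 1.02 to 2.63 under the 6 alternatives, although 1 MPP2-containing cell held 36.3% of the counts. Slc11a2, the divalent metal importer DMT1, was at 8.89 CPM in HPC1 and 13.1 in HSC1, 22.1 in MPP2-containing and 6.88 in HSC2/MPP4 cells, and 7.197 in CD48-negative HSC2 and 3.54 in double-negative cells. Its ratio in the same comparison was 1.25, and 1.09 to 2.35 under the alternatives. Both were rare, counted in 11.2% and 13.8% of thinned MPP2-containing cells, and in 2.67% and 2.67% of double-negative cells. Macrophage and monocyte genes (10 of 10 measured), whose cells are known for Slc40a1, summed to 91.9 CPM in the MPP2-containing and 46.2 CPM in the double-negative library, where Ccr2 was at 0. Of the 10, 1 was at least 2-fold higher in that comparison. Over the other libraries their sum did not follow Slc40a1. It was highest for HSC2/MPP4 cells, at 439 CPM, of which Ly6c2 gave 351 CPM. HPC1 had 104 CPM, CD48-negative HSC2 81.0 CPM and HSC1 65.0 CPM. The rho of Slc40a1 with the macrophage and monocyte sum was 0.31 over 80 MPP2-containing cells and 0.16 after thinning. With the sum of the 14 erythroid genes it was 0.12 over these cells and -0.09 after thinning. The part of such cells in the Slc40a1 difference was not tested. Of 15 other genes of iron handling measured, 0 were at least 2-fold apart in MPP2-containing over double-negative. In HSC2/MPP4 over CD48-negative HSC2, 1 was higher and 2 lower: Alas1, of haem synthesis, at 1.29, Hmox1, which breaks haem down, at -2.24 and Tfr2, a transferrin receptor, at -1.31.

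Haem and mitochondrial iron carriers were less variable. Slc48a1, which moves haem out of lysosomes, was at 186 CPM in HPC1 and 184 in HSC1, 159 in MPP2-containing and 105.0 in HSC2/MPP4 cells, and 144 in CD48-negative HSC2 and 171 in double-negative cells, lowest in HSC2/MPP4. Slc25a37, mitoferrin 1, which brings iron into mitochondria, was named here after its values were seen and was at 30.5 CPM in HPC1 and 38.1 in HSC1, 21.8 in MPP2-containing and 28.3 in HSC2/MPP4 cells, and 53.6 in CD48-negative HSC2 and 39.05 in double-negative cells. Slc4a1, the anion exchanger of the red cell membrane, was called higher in HPC1 over HSC1 (1.06) and in CD48-negative HSC2 over double-negative (1.08), and is given because of where its counts lay. Of its 125 counts in HPC1, 84% came from 1 cell in which haemoglobin genes made up 13.9% of all counts. Of its 31 counts in CD48-negative HSC2, 96.8% came from 1 cell with 7.30% of haemoglobin. Without cells in which haemoglobin or neutrophil genes reached 1%, which were 5 in HPC1 and 3 in CD48-negative HSC2, the ratios were 0.25 and 0.05.

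Zinc carriers included Slc39a11, the most abundant of the 27 metal carriers. It was at 30.2 CPM in HPC1 and 36.5 in HSC1, 39.9 in MPP2-containing and 87.7 in HSC2/MPP4 cells, and 97.5 in CD48-negative HSC2 and 29.9 in double-negative cells. HSC2/MPP4 and CD48-negative HSC2 were not separated beyond counting error, with overlapping intervals (78.6 to 97.4 and 86.3 to 109.9 CPM), and at least 2 times as high as each of the other 4 libraries. The log2 ratio of CD48-negative HSC2 over double-negative was 1.43 (1.14 to 1.71), and 1.21 to 1.81 under the alternatives. Slc39a9, also of the zinc carrier family, was lower in that comparison (-1.05), with 7.56 CPM in CD48-negative HSC2 and 26.3 in the double-negative library. Slc30a5 and Slc30a9, of the zinc exporter family, lay between 25.3 and 52.2 and between 18.2 and 41.7 CPM over the 6 libraries. Slc41a3, of a family of magnesium carriers, was lower in HPC1 (6.01 CPM) than in HSC1 (28.4 CPM) by a log2 ratio of -1.26. There 1 HSC1 cell held 63.04% of the counts, and without the highest cell of each library the ratio was -0.45.

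Among vitamin carriers, Slc19a1, the reduced folate carrier, was at 29.5 CPM in HPC1 and 60.7 in HSC1, 40.7 in MPP2-containing and 55.3 in HSC2/MPP4 cells, and 18.7 in CD48-negative HSC2 and 67.1 in double-negative cells. CD48-negative HSC2 had the lowest level and the double-negative library the highest. The log2 ratio was 1.19 (0.75 to 1.61) in HSC2/MPP4 over CD48-negative HSC2 and -1.42 (-1.78 to -1.06) in CD48-negative HSC2 over double-negative, which share the CD48-negative HSC2 library. They were 0.89 and -0.65 after thinning, below 2-fold. Slc52a2, a riboflavin carrier, was at 27.97 CPM in HPC1 and 6.32 in HSC1, 25.1 in MPP2-containing and 17.6 in HSC2/MPP4 cells, and 15.8 in CD48-negative HSC2 and 17.7 in double-negative cells. HSC1 stood lowest, and HPC1 was higher by 1.22, or 0.52 after thinning. Slc23a2, a vitamin C carrier, was listed at 0 counts in HSC1, which allows up to 0.462 CPM, and reached 14.9 CPM in the double-negative library.

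Of the phosphate and sulfate carriers, 2 were lower in CD48-negative HSC2 over double-negative. Slc20a2, a sodium-phosphate carrier, was at 8.63 CPM in HPC1 and 24.7 in HSC1, 22.2 in MPP2-containing and 18.1 in HSC2/MPP4 cells, and 8.64 in CD48-negative HSC2 and 38.8 in double-negative cells. Its log2 ratio of CD48-negative HSC2 over double-negative was -1.39 (-1.77 to -0.98), and -2.05 to -1.01 under the alternatives. Slc26a2, a sulfate carrier, was at 18.2 CPM in HPC1 and 15.6 in HSC1, 18.7 in MPP2-containing and 4.08 in HSC2/MPP4 cells, and 4.68 in CD48-negative HSC2 and 21.9 in double-negative cells. HSC2/MPP4 and CD48-negative HSC2 were both below the other 4 libraries, with 16 and 13 counts, and the ratio of CD48-negative HSC2 over double-negative was -1.12 (-1.49 to -0.69). Slc20a1, another sodium-phosphate carrier, was highest in HPC1 (26.3 CPM) and lowest in HSC1 (9.09 CPM), where 1 cell held 74.6% of the counts. The sum over the 9 members was 61.9 CPM in CD48-negative HSC2 and 93.2 CPM in the double-negative library.

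Nucleotide sugar carriers supply the Golgi with building blocks and, as a class, summed to 618 CPM in HPC1 and 637 in HSC1, 559.8 in MPP2-containing and 682 in HSC2/MPP4 cells, and 661 in CD48-negative HSC2 and 668 in double-negative cells. Slc35b2 and Slc35b3 both carry PAPS, the donor of sulfate groups. Slc35b2 was at 119 CPM in HPC1 and 109.7 in HSC1, 88.9 in MPP2-containing and 103 in HSC2/MPP4 cells, and 107 in CD48-negative HSC2 and 81.8 in double-negative cells. Slc35b3 was at 21.6 CPM in HPC1 and 44.5 in HSC1, 21.2 in MPP2-containing and 17.8 in HSC2/MPP4 cells, and 27.7 in CD48-negative HSC2 and 53.1 in double-negative cells. Slc35b2 was below 2-fold in every comparison, and Slc35b3 was lower in MPP2-containing over double-negative, at -1.02 (-1.23 to -0.80), or -0.84 without the highest cells. Slc35f2, of the same family, was at 3.57 CPM in HPC1 and 2.62 in HSC1, 8.32 in MPP2-containing and 16.6 in HSC2/MPP4 cells, and 9.36 in CD48-negative HSC2 and 32.2 in double-negative cells. Its ratios of MPP2-containing over double-negative (-1.20) and of CD48-negative HSC2 over double-negative (-1.12) use the same double-negative library, in which 1 cell held 44.97% of the counts. Without the highest cells they were -0.81 and -0.83. Slc35d3 was at 11.8 CPM in HPC1 and 7.86 in HSC1, 9.05 in MPP2-containing and 26.8 in HSC2/MPP4 cells, and 20.2 in CD48-negative HSC2 and 0.405 in double-negative cells, with 4 counts in the double-negative library. The ratio of CD48-negative HSC2 over double-negative was 1.54 (1.19 to 1.84), and 1.42 to 3.91 under the alternatives.

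Nucleoside carriers had their highest sum in HSC2/MPP4. Slc29a1, the equilibrative carrier ENT1, was at 51.3 CPM in HPC1 and 56.4 in HSC1, 76.4 in MPP2-containing and 97.9 in HSC2/MPP4 cells, and 68.7 in CD48-negative HSC2 and 48.2 in double-negative cells. Slc28a2, a concentrative carrier of purine nucleosides, was at 10.1 CPM in HPC1 and 11.7 in HSC1, 20.7 in MPP2-containing and 38.2 in HSC2/MPP4 cells, and 24.5 in CD48-negative HSC2 and 13.4 in double-negative cells, and Slc29a3, a lysosomal carrier, lay between 19.96 and 33.2 CPM. Slc29a1 and Slc28a2 were both highest in HSC2/MPP4. Slc29a3 was highest in the MPP2-containing library, not separated from HSC2/MPP4 beyond counting error. None of the 3 was 2-fold apart in any of the 4 comparisons. The class sum was 93.8 CPM in HPC1 and 103 in HSC1, 137 in MPP2-containing and 179 in HSC2/MPP4 cells, and 132 in CD48-negative HSC2 and 94.3 in double-negative cells.

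Among ion and organic ion carriers, Slc22a15, a carrier of zwitterions, was at 32.8 CPM in HPC1 and 7.70 in HSC1, 20.9 in MPP2-containing and 7.65 in HSC2/MPP4 cells, and 8.996 in CD48-negative HSC2 and 35.6 in double-negative cells. It was higher in HPC1 than in HSC1 by 1.27 (0.97 to 1.56) and lower in CD48-negative HSC2 than in the double-negative library, at -1.26 (-1.65 to -0.85). The first was 0.24 after thinning and 0.64 as a mean of per-cell CPM, and 1 HPC1 cell held 30.1% of the counts, while the other was -1.87 to -1.05 under the 6 alternatives. Slc22a3, an organic cation carrier, was at 44.1 CPM in HPC1 and 40.4 in HSC1, 54.4 in MPP2-containing and 25.5 in HSC2/MPP4 cells, and 25.2 in CD48-negative HSC2 and 51.9 in double-negative cells, lowest in both libraries labelled total RNA. Slc10a7, of the bile acid carrier family, was at 6.62 CPM in HPC1 and 7.40 in HSC1, 16.8 in MPP2-containing and 17.6 in HSC2/MPP4 cells, and 21.95 in CD48-negative HSC2 and 5.06 in double-negative cells, with a log2 ratio of 1.09 (0.68 to 1.47) in CD48-negative HSC2 over double-negative. Sodium pump genes, whose activity powers sodium-coupled carriers, summed to 124 CPM in HPC1 and 132 in HSC1, 139 in MPP2-containing and 161 in HSC2/MPP4 cells, and 148 in CD48-negative HSC2 and 138 in double-negative cells, and 0 of 5 measured were at least 2-fold apart in any of the 4 comparisons.

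**Figure D5:**
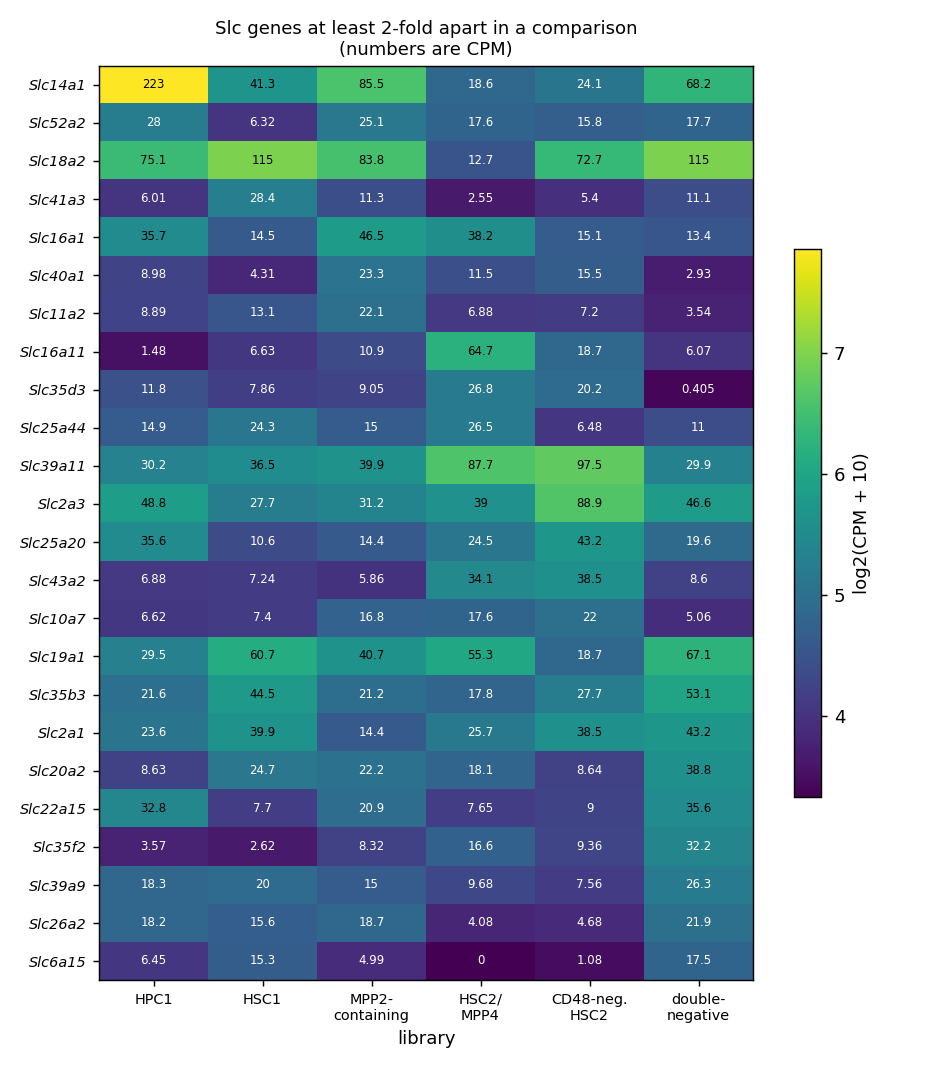
Levels of members described in the text that were at least 2-fold apart in 1 of the 4 comparisons and counted in at least 25% of the cells of a library, coloured by log2(CPM + 10) with the CPM printed in each cell. Rows are ordered by the library of the highest level. Slc14a1 (18.6 to 223 CPM) and Slc16a11 (1.48 to 64.7 CPM) span the largest ranges on that scale, and several rows are high or low in HSC2/MPP4 and CD48-negative HSC2 together.

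Carriers that do not bear the Slc name were taken as a list of 21 genes, of which 18 were measured. In HPC1 over HSC1, 2 were at least 2-fold higher, Rhd and Spns1. In MPP2-containing over double-negative 2 were higher, Rhd and Slco3a1, and in HSC2/MPP4 over CD48-negative HSC2 none were called. In CD48-negative HSC2 over double-negative 2 were higher, Npc1 and Slco3a1, and 1 lower. The lower gene was Mfsd2b, a carrier of sphingosine 1-phosphate in red cells and platelets, at 86.5 CPM in HPC1 and 45.5 in HSC1, 76.6 in MPP2-containing and 4.84 in HSC2/MPP4 cells, and 2.88 in CD48-negative HSC2 and 39.6 in double-negative cells. Ucp2, a mitochondrial carrier of the Slc25 kind, was at 394 CPM in HPC1 and 339 in HSC1, 302 in MPP2-containing and 367 in HSC2/MPP4 cells, and 276 in CD48-negative HSC2 and 254 in double-negative cells. The mitochondrial pyruvate carrier subunit Mpc2 lay between 184 CPM in HPC1 and 210.0 in HSC1.

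HSC2/MPP4 and CD48-negative HSC2 cells share their total RNA label and their age label and were deposited apart from the rest, so that these features and the gates cannot be told apart. Of the 155 members reaching 10 CPM, 24 (15.5%) were higher in both than in each of the other 4 libraries, against 12.6% of all 9757 genes at that level, and 15 (9.68%) were lower in both, against 12.9%. Slc39a11, Slc43a2, Slc38a1, Slc35d3, Slc10a7 and Slc16a11 were among the 24 higher ones, and Slc14a1, Slc18a2, Slc48a1, Slc25a11, Slc26a2 and Slc6a15 among the 15 lower ones. These sets go by order alone. For Slc38a1 and Slc10a7 among the higher ones, and for Slc18a2, Slc48a1 and Slc25a11 among the lower ones, at least 1 of the 2 total RNA libraries was not separated from the nearest of the other 4 beyond counting error. Of the 18 members called in CD48-negative HSC2 over double-negative, 8 belong to either set, 4 to each.

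Protein-coding genes on the opposite strand overlap 41 of the 240 members in GENCODE M21 on GRCm38, and 4 overlap a coding gene on their own strand. Among those named above, Slc39a11 (chr11:113244853-113650079, minus strand) overlaps Cog1 and Sstr2, Slc19a1 overlaps Col18a1, Slc25a11 overlaps Rnf167, Slc48a1 overlaps Hdac7, Slc39a9 overlaps Erh and Slc20a2 overlaps Smim19. The same holds for Slc11a2 with Gm5475, Slc22a3 with Plg, Slc25a26 with Lrig1, Slc4a1ap with Supt7l and Slc7a5 with Gm20388. Whether reads were counted by strand is not given in the sources used here, so for these members reads of the partner cannot be told apart.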

How the data were processed

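The deposited tables hold scores, which the authors made from counts. Each gene is centred on 0 with an SD of 1 across the 497 cells of the 3 tables together, and values are capped at 10. Per the submitters' processing notes, TopHat, HTSeq and the mm10 build were used. The sources used here do not give versions, annotation, cell filters, the use of UMIs or any removal of doublets. The 2 later tables number their rows. These were matched in order to the gene symbols of the joint table after its 6 rows with a blank name were dropped. No column of per-sample values was left unused.

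The scores proved to be residuals of log-normalized counts (10000 per cell) after regression on an intercept and 2 cell covariates. The regression and scaling were undone gene by gene. Of 13278 genes 13168 gave counts, and 100% of values from 1 to 50 were whole numbers within 0.01. The scaling of a gene was chosen to make its counts whole, and genes that fell short were dropped. This share is therefore not an independent check. All 4970 capped values in the 13168 genes were solved as well. The recovered genes hold 64.8 to 88.4% (median 73.7%) of a cell's total. Levels are pooled counts per 1000000 of that total, and levels of different genes are 3′-end counts, not corrected for length. Cells were neither clustered nor filtered, no doublets were called, and 0 cells had identical scores. Column names hold cell numbers and no barcodes, so shared barcodes could not be counted. The code was tested on simulated data.

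No test was run, since a group is 1 library. The design had been written for counts, and the ratios it fixed were taken from the recovered counts. Members were named when at least 2-fold apart in a comparison and counted in at least 25% of cells of a library, when among the 15 highest, the 15 of largest range or the 3 highest of a transport class, 78 in all. Others are said to be chosen later. Results of 2 called members are not reported here. Members, classes and gene lists were chosen with earlier results of these data known. Alternatives were a mean of per-cell CPM, leaving out each gene's highest cell, 1 CPM added, a filter at 10 CPM, thinning to 10000 counts (1 HPC1, 4 HSC1, 0 MPP2-containing, 8 HSC2/MPP4, 20 CD48-negative HSC2 and 1 double-negative cell left out), leaving out cells rich in haemoglobin or neutrophil genes, and the sign of the deposited scores. Python 3.11.15, numpy 2.4.6, scipy 1.17.1 and pandas 2.3.3 were used.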

Additional observations from a re-analysis of the deposited data

How the results depend on the processing

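No paired analysis was possible because each group has 1 library. Counts of called members depended most on the amount added before the ratio: with 1 CPM in place of 10 CPM, members higher and lower were 27 and 32 in HPC1 over HSC1, 23 and 28 in MPP2-containing over double-negative, 25 and 27 in HSC2/MPP4 over CD48-negative HSC2, and 39 and 37 in CD48-negative HSC2 over double-negative. As a mean of per-cell CPM the members lower were 7, 2, 6 and 4 in the same order. Without each gene's highest cell, the members lower were 1 in HPC1 over HSC1 and 0 in MPP2-containing over double-negative. After thinning to 10000 counts, 5 were lower in HPC1 over HSC1, 8 higher in MPP2-containing over double-negative and 5 lower in HSC2/MPP4 over CD48-negative HSC2. Of the 5 lower in HPC1 over HSC1 after thinning, 0 were among the 3 called without it. The other counts of members called stayed within 1.5 times under these alternatives, the filter at 10 CPM and the removal of cells rich in haemoglobin or neutrophil genes. Shares of all genes are given only for the main setting and the filter at 10 CPM. Counts of members at the other settings are therefore not set against other genes. Named members that stayed at least 2-fold apart under all 6 alternatives were 1 of 6 in HPC1 over HSC1 (Slc14a1), 3 of 6 in MPP2-containing over double-negative, 1 of 5 in HSC2/MPP4 over CD48-negative HSC2 (Slc18a2) and 7 of 14 in CD48-negative HSC2 over double-negative. Among these alternatives, adding 1 CPM and the filter at 10 CPM cannot undo a 2-fold ratio. The mean deposited score of Slc14a1 was higher by 0.0958 in CD48-negative HSC2 over double-negative, against its lower pooled level. The sign of the score difference matched that of the ratio for the other called named members. Depth limits CD48-negative HSC2 most, where a count of 0 allows up to 1.08 CPM.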
